A study of Mus musculus with 15 samples.

Results

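The ATP-binding cassette (ABC) genes encode proteins that bind and split ATP through paired nucleotide-binding domains. Most span a membrane and use the energy to move a substrate across it, such as cholesterol, phospholipids, heme and its precursors, very-long-chain fatty acids, conjugated metabolites or drugs. Members of subfamilies E and F have no membrane-spanning part and act on ribosomes and translation. In marrow the family is known for drug efflux in stem cells and leukaemia, for heme and iron-sulfur handling in the erythroid lineage, and for sterol efflux in macrophages and progenitors. All protein-coding rows of the expression table whose symbol is Abc, a letter from a to g and a number, with or without a final letter, were taken, which gave 50 genes of 38315 rows. Genes were taken by name, not by measured values, but the family and the gene lists set beside it were chosen with earlier results of these data known.

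Total RNA was measured by bulk sequencing in marrow of 3 groups of mice. The 7 AML libraries came from leukaemic bone marrow of mice labelled NUP98-NSD1/FLT3-ITD. NUP98-NSD1 joins a nuclear pore gene to a gene for a histone methyltransferase. FLT3-ITD denotes a duplicated stretch within the receptor kinase FLT3 that keeps it active. The normal libraries came from wild-type mice, with 4 libraries of whole bone marrow and 4 of lineage-negative bone marrow, a fraction from which cells carrying mature lineage markers are removed. The labels used here give neither the age of the mice, nor the promoter or allele that carries each lesion, nor the antibodies of the lineage depletion, and do not say whether whole and lineage-negative marrow came from the same mice. P-values therefore measure the spread between these samples, and in bulk marrow fewer cells of a type and less RNA per cell cannot be told apart.

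Values are the authors' normalized counts, in which each library's counts are divided by a size factor. The steps between low values put the depth at about 20.3 to 35.1 M reads in AML, 11.4 to 17.2 M in whole marrow and 20.3 to 28.1 M in lineage-negative marrow. Whole marrow stood apart at the low end: 7.12% to 15.7% of all genes were at 0 there, against 35.7% to 41.0% in lineage-negative marrow. In AML the share was 38.2% to 41.4%, except in AML replicates 5 (29.1%) and 6 (23.6%). The mean of 1451 olfactory and vomeronasal receptor genes, which marrow is not known to use, moved with it: 7.14 to 13.5 normalized counts in whole marrow, 0.385 to 0.499 in lineage-negative marrow, and 0.465 to 0.746 in AML apart from replicates 5 (1.33) and 6 (3.81). The median of 18941 tested genes was 0.67 higher in AML than in whole marrow on the log2 scale as deposited, and -0.01 after TMM scaling, which trims extreme genes before libraries are matched. Against lineage-negative marrow the same medians were 0.02 and 0.03. Differences of named genes from whole marrow are therefore given as deposited and with TMM, while library values, overlaps between groups and values without a library are as deposited. Marker lists also differed between the groups: all 10 erythroid markers were lower in AML than in whole marrow and 5 of 10 were lower than in lineage-negative marrow, and 9 of 10 eosinophil, basophil and mast cell markers were lower against both. Of 10 monocyte and macrophage markers, 9 were higher in AML than in lineage-negative marrow, and against whole marrow 5 were higher (3 with TMM) and 1 was lower. Of 8 megakaryocyte markers 7 were lower than in whole marrow and 6 lower than in lineage-negative marrow. Of 10 B cell markers 10 were lower than in whole marrow and 7 higher than in lineage-negative marrow, and of 10 neutrophil markers 7 were higher and 1 lower than in lineage-negative marrow. Of 10 T and NK cell markers 6 were higher and 1 lower than in lineage-negative marrow, of 10 stem and progenitor markers 1 and 7, and of 9 stroma and endothelium markers 4 and 2. Against whole marrow, 0 neutrophil markers were higher and 0 lower (0 and 1 with TMM), and 5 and 0 T and NK cell markers (0 and 2). For stem and progenitor markers these were 4 and 1 (2 and 2), and for stroma and endothelium 0 and 1 (0 and 3). Of all genes 17.7% were higher and 12.5% lower than in lineage-negative marrow, and 27.3% and 11.3% than in whole marrow (4.73% and 16% with TMM). Of all markers in the lists, Bglap (osteocalcin) alone was at 0 in every library of a group, in whole marrow.

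Of the 50 ABC genes, 43 reached a normalized count of 10 in at least 1 library and 38 reached it in at least 4, the condition for testing. The tested genes were 11 of 16 in subfamily A, 8 of 10 in B, 7 of 10 in C, all 4 in D, the single E gene, all 3 in F and 4 of 6 in G. Genes not measured were Abca14, Abca15, Abcb5, Abcc6, Abcc12, Abcg5 and Abcg8, with a highest value of 8.08. A further 5 genes, Abca12, Abca16, Abca17, Abcb11 (the bile salt export pump) and Abcc8 (the sulfonylurea receptor), were measured in fewer than 4 libraries and reached 31.4 at most. Of these 12 genes, 10 had their highest value in a whole-marrow library and 10 were at 0 in all 4 lineage-negative libraries. Their summed value was 30.02 to 91.5 in whole marrow, 0 to 5.29 in lineage-negative marrow, and 7.63 to 29.6 in AML, with the 29.6 in replicate 6. This order follows the receptor genes above, and the part of that low-level signal in these values was not tested.

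Per kilobase of exon, the scale on which genes can be ranked against each other, the mean normalized count in AML was highest for Abca7 (881 per kb), a phospholipid transporter of phagocytes. For Abcd2, a peroxisomal fatty acid transporter, it was 527 per kb. In whole marrow the highest was Abcb10 (827 per kb), a mitochondrial transporter of erythroid cells, followed by Abca7 (416). Lineage-negative marrow was led by the translation genes Abcf2 (1044 per kb), Abcf1 (982) and Abce1 (884). The leading gene thus differed between the 3 groups.

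A gene is called higher or lower here where the limma adjusted p over all 18941 genes was under 0.05 and the difference was at least 1 on the log2(normalized count + 1) scale. Differences are AML minus the normal group on this log2 scale, ± the standard error of the fit (n = 7 against 4 libraries). Where 3 normalized counts are given for AML they are the lowest, median and highest, and the 4 of a normal group are its replicates 1 to 4. Against lineage-negative marrow 12 of the 38 tested ABC genes were higher, where 17.7% of all genes were, and 11 were lower, where 12.5% of all genes were, and these counts were the same with TMM. In 10 of the 38 every AML library was above every lineage-negative one (17% of all genes) and in 11 every one was below (17.6%). Against whole marrow 16 were higher as deposited (all genes 27.3%) and 4 with TMM (4.73%), while 6 were lower as deposited (11.3%) and 7 with TMM (16%). All AML libraries were above all whole-marrow ones for 18 genes (35.8%) and below them for 6 (7.88%). The median difference of the 38 genes was 0.12 against lineage-negative marrow, beside 0.02 for all genes, and 0.82 against whole marrow, beside 0.67 for all genes. Between the normal groups, 12 ABC genes were higher in lineage-negative than in whole marrow (all genes 33.1%) and 8 were lower (17.2%). With TMM these became 8 (11%) and 13 (24.8%), and without overlap of the groups there were 15 higher (41.1%) and 6 lower (16.6%).

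**Figure D1:**
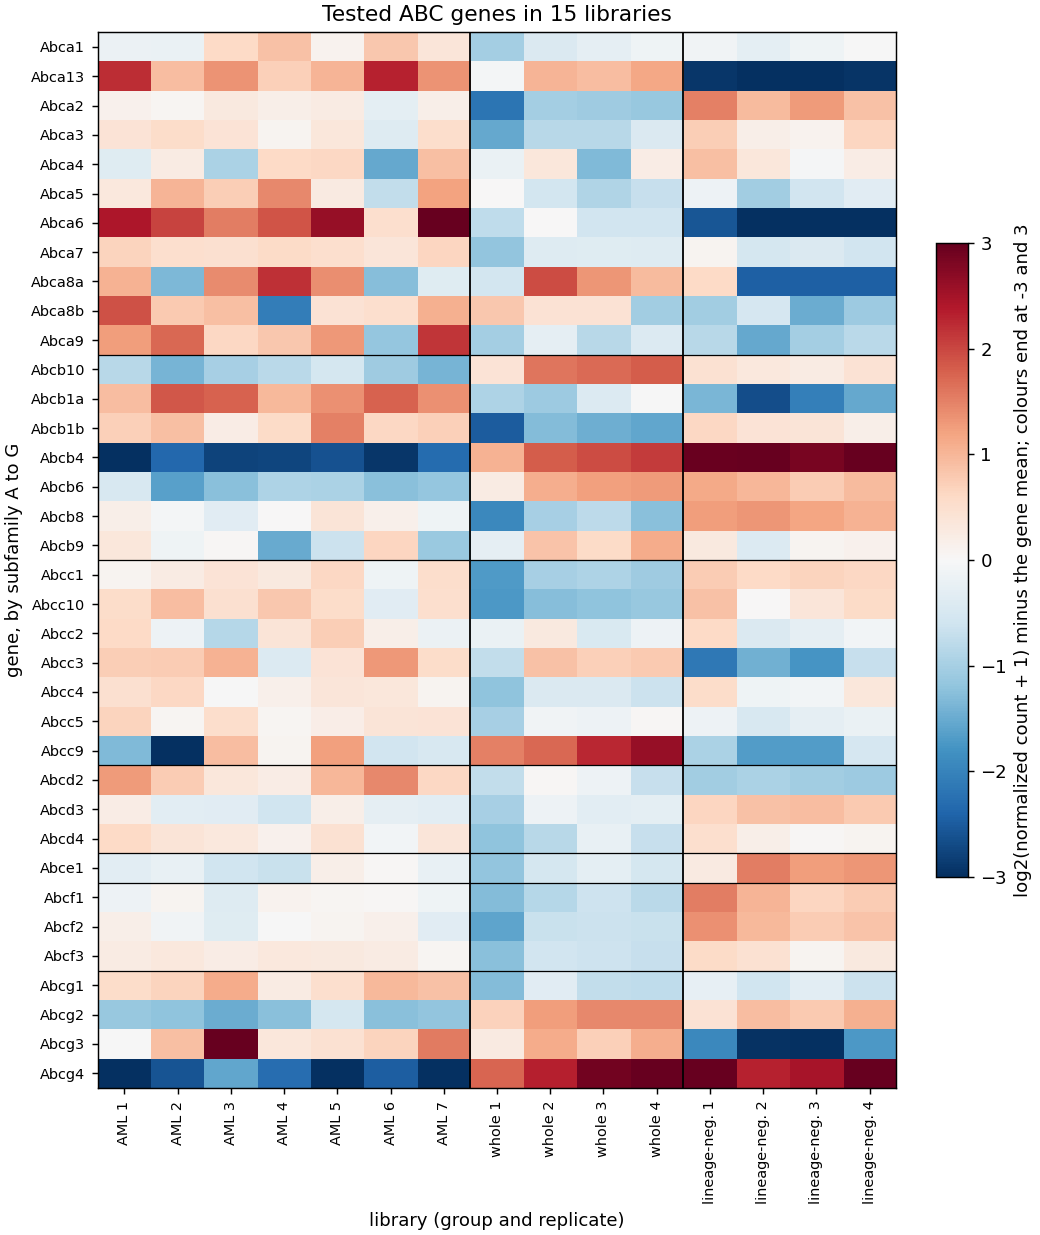
Each cell is the log2(normalized count + 1) of 1 of 36 tested ABC genes in 1 of the 15 libraries, minus that gene's mean over all libraries, with genes ordered by subfamily and colours ending at -3 and 3. Abcb4, Abcb6, Abcb10, Abcg2 and Abcg4 are blue in all 7 AML columns and red in all 8 normal ones, while whole-marrow replicate 1 is bluer than the other whole-marrow libraries for most genes.

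Both AML comparisons use the same 7 AML libraries, so they are set side by side rather than counted as separate evidence. Lower in AML than in both normal groups, under both scalings, were 5 genes: Abcb4, Abcb6, Abcb10, Abcg2 and Abcg4 (all genes 3.12% as deposited and 4.28% with TMM). Higher than both as deposited were 7 genes, among them Abca5, Abca6, Abca9, Abcb1a, Abcd2 and Abcg1 (all genes 7.2%). With TMM 2 of them, Abca6 and Abcb1a, were still called against whole marrow (all genes 2.82%). Abca2 and Abcb8 were higher than whole marrow and lower than lineage-negative marrow as deposited (all genes 2.22%), and with TMM no ABC gene was called in opposite directions (1.81%).

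**Figure D2:**
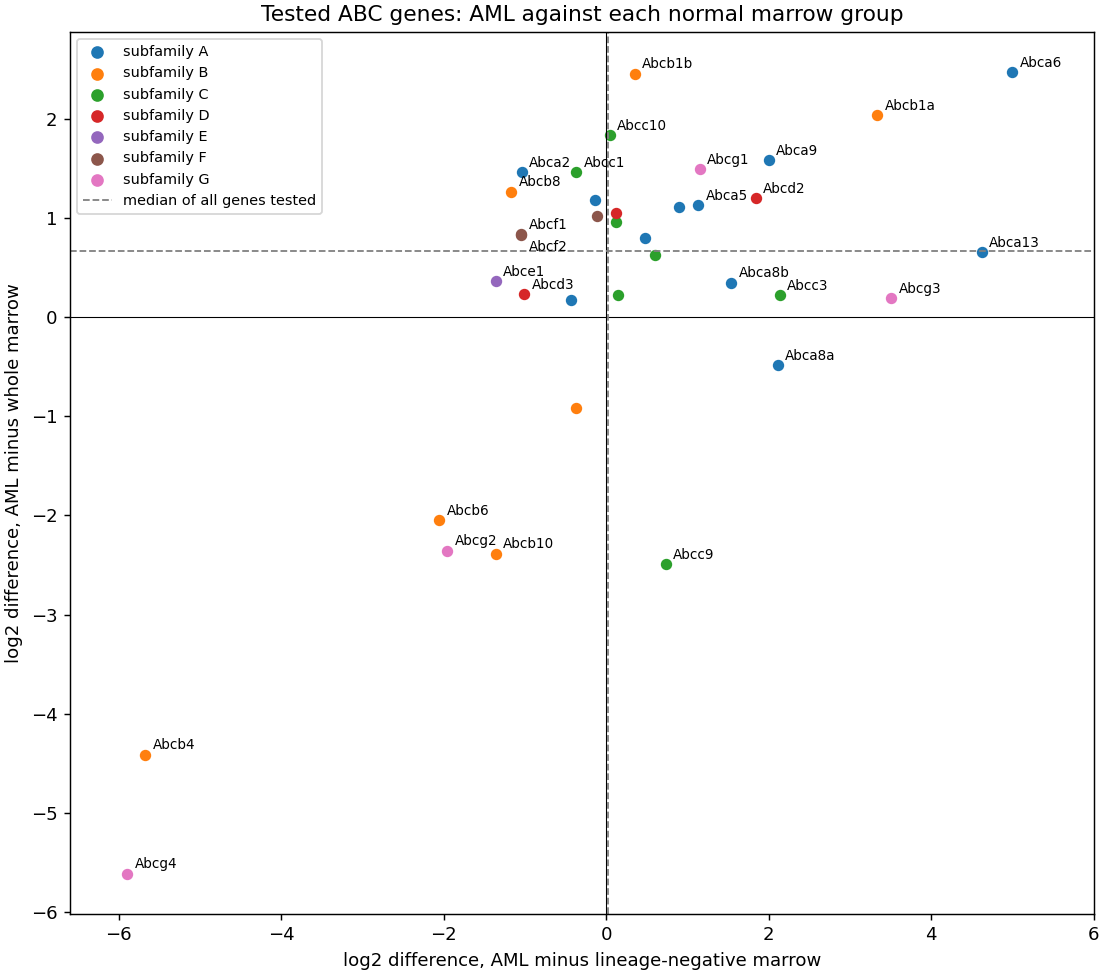
Each point is 1 of 36 tested ABC genes, with the log2 difference of AML minus lineage-negative marrow on the x axis and of AML minus whole marrow on the y axis as deposited, coloured by subfamily. Dashed lines mark the median of all 18941 genes (0.02 and 0.67), and the 5 genes at the lower left are Abcg4, Abcb4, Abcb6, Abcg2 and Abcb10.

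For 4 of the 5 genes that fell against both groups, RefSeq gives a start site close to the annotated gene start in GRCm38 (Abcg4 is named only). The 250 bases before each start are shown because these genes were picked as lower in AML than in both groups. A further reason is that GATA factors act in the erythroid, mast cell and megakaryocyte lineages. These factors bind GATA followed by A or a similar letter. Between the normal groups the 4 genes did not move together. Lineage-negative minus whole marrow was 1.26 for Abcb4, 0.005 for Abcb6, -1.03 for Abcb10 and -0.40 for Abcg2 as deposited. Capitals mark GATAA, or TTATC where it reads on the other strand. Each window is written 5′ to 3′ on the gene's own strand: Abcb4 at chr5:8893471-8893720 on the plus strand, Abcb6 at chr1:75180393-75180642 on the minus strand, Abcb10 at chr8:123983123-123983372 on the minus strand and Abcg2 at chr6:58584283-58584532 on the plus strand.
Abcb4: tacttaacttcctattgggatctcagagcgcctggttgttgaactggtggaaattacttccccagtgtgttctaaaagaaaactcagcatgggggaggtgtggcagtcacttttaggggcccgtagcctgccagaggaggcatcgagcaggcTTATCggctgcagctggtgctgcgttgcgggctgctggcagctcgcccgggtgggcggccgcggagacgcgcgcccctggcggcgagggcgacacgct
Abcb6: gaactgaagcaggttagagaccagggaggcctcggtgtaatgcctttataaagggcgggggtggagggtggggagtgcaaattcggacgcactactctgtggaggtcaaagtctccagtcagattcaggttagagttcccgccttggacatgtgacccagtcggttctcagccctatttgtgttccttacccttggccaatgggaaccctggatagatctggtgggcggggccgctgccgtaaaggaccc
Abcb10: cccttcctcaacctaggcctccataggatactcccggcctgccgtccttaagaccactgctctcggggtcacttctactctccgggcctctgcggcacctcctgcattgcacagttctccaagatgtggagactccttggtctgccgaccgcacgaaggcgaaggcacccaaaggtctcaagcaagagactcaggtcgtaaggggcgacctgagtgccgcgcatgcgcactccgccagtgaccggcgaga
Abcg2: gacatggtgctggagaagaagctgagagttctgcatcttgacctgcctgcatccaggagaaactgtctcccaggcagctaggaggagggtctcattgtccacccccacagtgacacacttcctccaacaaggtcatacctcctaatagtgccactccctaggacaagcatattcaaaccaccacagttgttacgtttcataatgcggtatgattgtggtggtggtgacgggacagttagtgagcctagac
The Abcb4 window held 1 match and the other 3 windows held none, while 22.6% of the 32851 mouse windows of this length in the RefSeq table held at least 1. Over the family, 38 of the 50 genes had an entry, with 45 windows in all, of which 10 held a match, including an Abcg2 start 56023 bases into the gene. The share in the family is near that of all windows, and a match describes letters, not a bound site. Other short motifs were searched on both strands in the same way: CACCC was in all 4 windows shown and in 52.0% of all windows, and TGACC was in 3 of the 4, not in that of Abcb4, and in 35.2% of all windows.

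Among half-transporters of subfamily B known in mitochondria, Abcb10 and Abcb6 were lower in AML than in both normal groups, and Abcb8 was not. Abcb10 (chr8:123952459-123983122, minus strand), which is needed for heme synthesis in erythroid precursors, had a lowest, median and highest normalized count of 483, 640.5 and 880.3 in the 7 AML libraries. In whole marrow it was 1691, 3896, 4171 and 4493, and in lineage-negative marrow it was 1749, 1575, 1513 and 1712. Every AML library lay below every normal library. The difference was -2.39 ± 0.23 (adjusted p = 3.1e-07) from whole marrow (-3.08 with TMM) and -1.36 ± 0.23 (adjusted p = 8.2e-05) from lineage-negative marrow. Lineage-negative marrow was itself lower than whole marrow, by a difference of -1.03 as deposited and -1.73 with TMM (adjusted p = 5.0e-07, limma), both called. The deposited call was lost without whole-marrow replicate 2 (-0.95), 3 (-0.92) or 4 (-0.88) or lineage-negative replicate 3 (-0.99).

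Abcb6 (chr1:75171717-75180392, minus strand), a porphyrin transporter, had values of 101, 140.2 and 226 in AML as lowest, median and highest. The whole-marrow values were 371, 673, 739 and 763 and the lineage-negative values 697, 635, 533 and 605, and every AML library again lay below every normal one. The normal groups overlapped each other. It fell by a log2 difference of -2.05 ± 0.23 from whole marrow (-2.74 with TMM) and -2.06 ± 0.23 from lineage-negative marrow (adjusted p = 1.3e-06 and 4.6e-07, limma). Exons of Abcb6 overlap the same-strand gene Gm29253 and those of Abcb10 overlap the antisense gene Gm45890, and the counting of shared reads is not given in the sources used here.

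Abcb8, linked to mitochondrial iron export, had 423, 539.9 and 709 in AML, 139, 268, 314 and 226 in whole marrow and 1281, 1342, 1219.8 and 1102 in lineage-negative marrow, an order with AML between the normal groups and no overlap. Abcb8 fell against lineage-negative marrow (-1.17 ± 0.20, adjusted p = 8.9e-05), and was higher than whole marrow as deposited (1.27) but not called with TMM (0.57).

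Enzymes and carriers of heme and iron-sulfur synthesis that work beside these transporters were lower in AML more often than higher. Of 18 listed and tested, 10 were lower and 1 higher than whole marrow (12 and 1 with TMM), and 8 were lower and 1 higher than lineage-negative marrow (7 and 1 with TMM). Of all genes, 11.3% were lower and 27.3% higher than whole marrow (16% and 4.73% with TMM). Against lineage-negative marrow these shares were 12.5% and 17.7% (12.4% and 17.6% with TMM). The median difference of the 18 genes was -1.37 from whole marrow (-2.07 with TMM) and -0.75 from lineage-negative marrow, beside 0.67 (-0.01 with TMM) and 0.02 for all genes. Alas2, the first enzyme of erythroid heme synthesis, had a mean of 171 in AML and 20975 in whole marrow (-7.83 ± 0.86, and -8.52 with TMM), but 227 in lineage-negative marrow, where the difference was not called (-0.51 ± 0.86). Fech, which inserts iron into the ring, fell against both groups (-3.55 ± 0.21 and -1.15 ± 0.21), as did Alad (-2.49 ± 0.23 and -2.45 ± 0.23) and Cpox (-2.62 ± 0.21 and -2.43 ± 0.21), which act earlier in the pathway. With TMM the differences from whole marrow were -4.25 for Fech, -3.18 for Alad and -3.32 for Cpox. Slc25a37, the mitochondrial iron importer, fell against whole marrow (-3.39 ± 0.24, and -4.09 with TMM). Hmox1, which breaks heme down and is high in macrophages, rose against lineage-negative marrow (3.50 ± 0.31). Its mean was 821 in AML, 916 in whole marrow and 77 in lineage-negative marrow. The summed erythroid markers were between 2956 and 14759 in AML, 294828 and 710354 in whole marrow, and 25609 and 35851 in lineage-negative marrow, and their part in these results was not tested.

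The drug and phospholipid transporters of the plasma membrane moved in opposite directions within 1 stretch of chromosome 5. Abcb1a, Abcb1b and Abcb4 lie next to each other on the plus strand (chr5:8660077-8748575, chr5:8798147-8866315 and chr5:8893717-8959231). Abcb1a and Abcb1b together make the mouse counterpart of P-glycoprotein, the multidrug efflux pump, and Abcb4 moves phosphatidylcholine, in liver into bile. Abcb4 had 40.7, 51.1 and 70.1 in AML as lowest, median and highest. It had 722, 1245, 1379 and 1505 in whole marrow and 2752, 2786, 2537 and 3122 in lineage-negative marrow. The highest AML value was below the lowest of each normal group, and the difference was -4.42 ± 0.21 (adjusted p = 5.8e-11) from whole marrow (-5.11 with TMM) and -5.67 ± 0.21 (adjusted p = 7.8e-13) from lineage-negative marrow.

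Abcb1a had 67.2, 92.2 and 130.3 in AML, 17.8, 16, 26.1 and 35 in whole marrow and 13, 4.68, 7.75 and 11.4 in lineage-negative marrow. All 7 AML libraries were above all 8 normal ones, and Abcb1a rose by 2.04 ± 0.33 from whole marrow (1.37 with TMM, also called) and 3.34 ± 0.33 from lineage-negative marrow (adjusted p = 4.8e-05 and 1.1e-07, limma). Abcb1b had 525, 739 and 1290.2 in AML, 79.1, 182, 163 and 153 in whole marrow and 702, 601, 592 and 511 in lineage-negative marrow. It rose against whole marrow (2.46 ± 0.24, 1.77 with TMM) but its AML values overlapped those of lineage-negative marrow (0.35 ± 0.24, adjusted p = 0.25). In lineage-negative marrow Abcb1b was higher than in whole marrow (2.11) and Abcb1a lower (-1.30), both also called with TMM (1.41 and -1.96). The sequences of Abcb1a and Abcb1b are close and each gene has an antisense neighbour over its exons, so reads can be split between them in ways the sources do not state, and their separate values are uncertain.

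**Figure D3:**
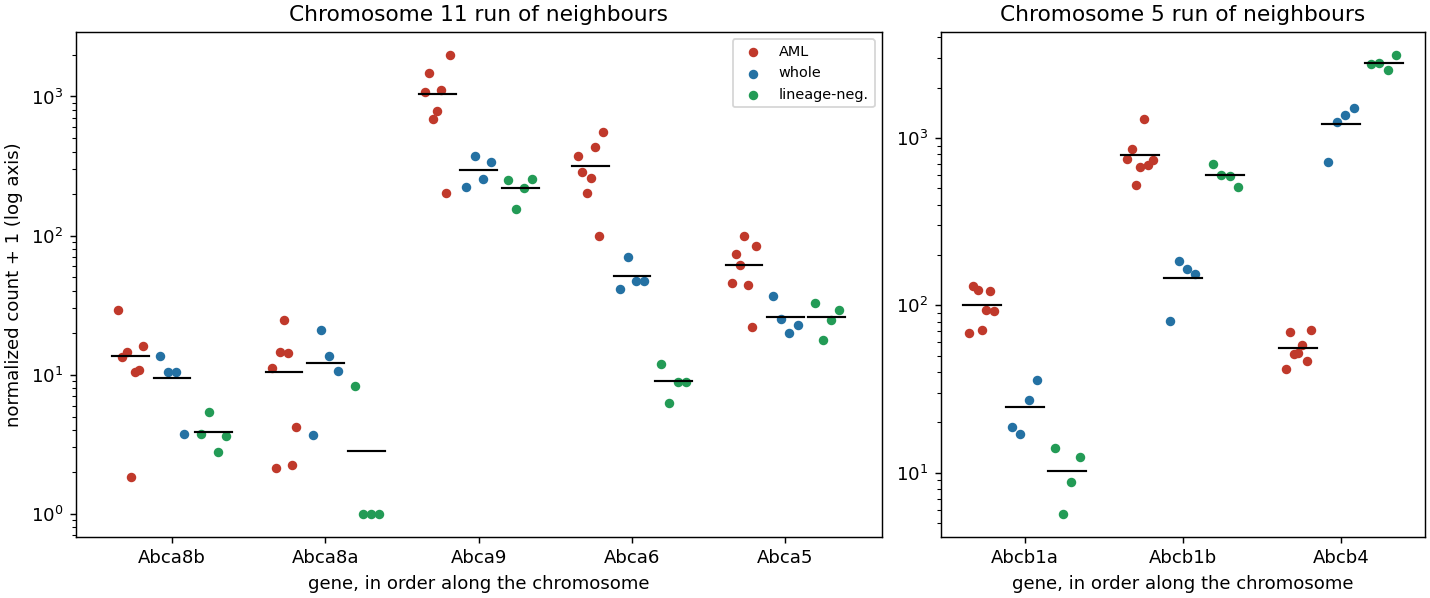
Points are single libraries on a log axis of normalized count + 1, lines are group means, and genes stand in chromosome order for the run on chromosome 11 (left) and on chromosome 5 (right). On the right, AML is the highest group for Abcb1a (67.2 to 130.3) and the lowest for Abcb4 (40.7 to 70.1), and on the left AML replicate 6 is the lowest AML point for Abca9, Abca6 and Abca5.

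Abcg2 (chr6:58584523-58695676, plus strand), the efflux pump behind the side-population stain of marrow stem cells and a porphyrin exporter, had 153, 184 and 300.1 in AML. Whole marrow had 697, 1019.7, 1166 and 1176 and lineage-negative marrow 579, 819.6, 742.1 and 906. No AML library reached a normal one, and Abcg2 fell by a difference of -2.36 ± 0.20 (adjusted p = 7.5e-08) from whole marrow (-3.05 with TMM) and -1.95 ± 0.20 (adjusted p = 2.0e-07) from lineage-negative marrow. The highest AML value was in replicate 5, at 300.1.

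Among the multidrug resistance-associated proteins of subfamily C, 7 genes were tested. Abcc1, which exports glutathione conjugates and leukotriene C4, had 1192, 1604 and 2000.0 in AML, 405, 653, 689 and 622 in whole marrow and 2205, 1974, 2081 and 2007 in lineage-negative marrow. Abcc1 in AML lay above all whole-marrow libraries (1.46 ± 0.18, 0.77 with TMM, not called) and did not pass against lineage-negative marrow (-0.37 ± 0.18). Abcc10, a related pump, had 88.8, 164 and 215 in AML, 33.2, 45.6, 48 and 50.5 in whole marrow and 209, 113, 145 and 167 in lineage-negative marrow. It rose against whole marrow under both scalings (1.84 ± 0.25 and 1.15), and its difference from lineage-negative marrow was 0.041 ± 0.25. Exons of Abcc10 overlap the antisense gene Dlk2.

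Abcc4, an exporter of cyclic nucleotides and prostaglandins, had 1315, 1671 and 2038 in AML, 577, 985, 990.3 and 849 in whole marrow and 1949, 1206, 1259 and 1667 in lineage-negative marrow. Its difference from whole marrow was 0.96 ± 0.19 as deposited and 0.27 with TMM (adjusted p = 0.16, limma), called under neither. The deposited value passed without AML replicate 3 (1.02) or 7 (1.0002) or whole-marrow replicate 2 (1.05) or 3 (1.05). Of the remaining genes of the subfamily, named after their values were seen, Abcc3 ran from 35.5 to 118 in AML, from 27.8 to 87.1 in whole marrow and from 9.98 to 28.7 in lineage-negative marrow, where AML was called higher (2.14 ± 0.38). Abcc9, a subunit of potassium channels in muscle and pericytes, was 0 to 19.8 in AML and 24.2 to 53.2 in whole marrow (-2.49 ± 0.63, and -3.13 with TMM, both called), where low-level signal was also highest. Abcc2 and Abcc5 were not called in any comparison.

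Genes of glutathione and leukotriene C4 synthesis, which supply substrates of Abcc1, gave a mixed picture. At an unadjusted limma p under 0.05, 54.1% of all genes were higher and 12.8% lower in AML than in whole marrow as deposited, and 21.5% and 24.8% with TMM. Of the 14 genes of this list, 2 were higher and 3 lower than in whole marrow as deposited, and 0 and 4 with TMM. At the unadjusted limma p there were 7 higher and 3 lower as deposited, and 2 and 5 with TMM. The called shares of all genes were 27.3% higher and 11.3% lower as deposited, and 4.73% and 16% with TMM. Of the same 14 genes, 5 were higher and 2 lower than in lineage-negative marrow, where 17.7% and 12.5% of all genes were. The microsomal transferases Mgst1 (3.61 ± 0.25) and Mgst2 (2.52 ± 0.24) and the glutathione-cleaving Ggt1 (2.65 ± 0.66) rose against lineage-negative marrow. Lineage-negative marrow was itself lower than whole marrow for each (-2.77, -2.17 and -2.88, and -3.47, -2.87 and -3.54 with TMM). Means in AML and whole marrow were 4203 and 2371 for Mgst1, 673 and 546 for Mgst2, and 72.3 and 61.6 for Ggt1. The lowest AML value of Ggt1 (17.2) was below its highest lineage-negative value (17.6). Gclm, a subunit of the rate-limiting enzyme of glutathione synthesis, fell against both groups (-1.84 ± 0.30 and -1.78 ± 0.30), and Mgst3 fell against whole marrow (-2.28 ± 0.23). With TMM the differences from whole marrow were -2.53 for Gclm and -2.98 for Mgst3.

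Transporters of cholesterol and phospholipids were split, with Abcg1 higher and its close relative Abcg4 lower in AML. Abcg1, which hands cholesterol to lipoproteins and is a target of the sterol receptors LXR, had 1452, 1919 and 2612 in AML, 495, 959, 727 and 714 in whole marrow and 1023, 806, 981 and 777 in lineage-negative marrow. All AML libraries were above all normal ones. The difference was 1.15 ± 0.20 (adjusted p = 6.9e-05) from lineage-negative marrow and 1.49 ± 0.20 from whole marrow as deposited, where TMM gave 0.80, not called.

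Abcg4 (chr9:44273188-44288615, minus strand), which exports cholesterol and is known in megakaryocyte progenitors and brain, was almost undetected in AML: 0, 6.75 and 14.7 as lowest, median and highest, with 3 of 7 libraries at or under the value of 3 reads. Whole marrow had 155, 233, 344 and 423 and lineage-negative marrow 470.2, 230.0, 255 and 416. The fall was -5.61 ± 0.54 (adjusted p = 2.5e-07) from whole marrow (-6.25 with TMM) and -5.89 ± 0.54 (adjusted p = 3.4e-08) from lineage-negative marrow, sizes that depend on the pseudocount, with -5.01 against lineage-negative marrow at a pseudocount of 5. Summed megakaryocyte markers were between 191 and 792 in AML, 788 and 2227 in whole marrow, and 3059 and 4160.0 in lineage-negative marrow. The summed eosinophil, basophil and mast cell markers were between 1347 and 3262 in AML, 18720.3 and 41687 in whole marrow, and 28330.2 and 51278 in lineage-negative marrow. Both lists had their lowest medians in AML, as Abcg4, Abcb4 and Abcg2 did, and their part in those results was not tested. Between the normal groups Abcg2 ran the other way: its mean was 1015 in whole and 761.7 in lineage-negative marrow, where the median sums were 1655 and 3998 for the megakaryocyte list and 37745 and 40224 for the other. The erythroid list also had its lowest median in AML (4905). Like Abcg2, it was higher in whole (555970) than in lineage-negative marrow (25989), and its part was not tested either.

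Abca1, the other LXR target of cholesterol efflux, had 419.5, 616 and 882 in AML, 235, 352, 399.7 and 441 in whole marrow and 445, 390.4, 439 and 476 in lineage-negative marrow. The groups overlapped and Abca1 was not called against either (log2 differences 0.80 ± 0.23 from whole marrow, 0.11 with TMM, and 0.47 ± 0.23 from lineage-negative marrow). Abca7, highest per kb in AML, had 5306, 5828 and 6543 in AML, 1807, 3135, 3168 and 3129.8 in whole marrow and 4349.6, 2858, 3034 and 2751 in lineage-negative marrow. Every AML library was above every normal one. Abca7 passed against whole marrow as deposited (1.12 ± 0.18), though not with TMM (0.42) or without whole-marrow replicate 1 (0.92). Against lineage-negative marrow its difference was 0.89 ± 0.18, short of the threshold of 1, which it passed without lineage-negative replicate 1 (1.04).

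Abca2, a lipid transporter of endolysosomes, had 1388, 1897 and 2059 in AML, 372, 831, 799 and 773.6 in whole marrow and 4808, 3239, 4103 and 3119 in lineage-negative marrow, so that AML lay between the normal groups without overlap. It was lower than lineage-negative marrow (-1.04 ± 0.21), a call lost without AML replicate 6 (-0.97) or lineage-negative replicate 1 (-0.92) or 3 (-0.997). Its difference from whole marrow was 1.47 ± 0.21 as deposited and 0.77 with TMM, not called. Abca3, which loads surfactant lipids in lung, had 1401, 2435 and 2661 in AML, 625.3, 1033, 1024 and 1362 in whole marrow and 3035, 2068, 1955 and 2866 in lineage-negative marrow. Its AML values overlapped those of lineage-negative marrow (-0.14 ± 0.22) and passed against whole marrow as deposited (1.19), but not with TMM (0.49) or without whole-marrow replicate 1 (0.97). Exons of Abca3 overlap an antisense gene, D330041H03Rik.

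Abca13, a very long member of the subfamily, separated lineage-negative marrow from both other groups. It had 2802, 4345 and 8469 in AML, 1638, 3472, 3252 and 3812 in whole marrow and only 225, 123, 188 and 221 in lineage-negative marrow. It rose against lineage-negative marrow by 4.62 ± 0.30 (adjusted p = 4.5e-10) and overlapped whole marrow (0.65 ± 0.30, and -0.043 with TMM). Abcg3, a rodent gene related to Abcg2, had 95.4, 155 and 771 in AML, 118, 209, 159.7 and 206 in whole marrow and 24.5, 11.5, 7.93 and 28.7 in lineage-negative marrow. It too rose against lineage-negative marrow (3.51 ± 0.46, adjusted p = 3.3e-06) and overlapped whole marrow (0.19 ± 0.46, and -0.500 with TMM). AML replicate 3 alone raised the AML mean of Abcg3 from 163 to 249.8, and without it the difference from whole marrow was -0.14. Summed neutrophil markers were 432994 to 1365974 in AML, 419992 to 1132892 in whole marrow and 100122 to 172819 in lineage-negative marrow, lowest in lineage-negative marrow as Abca13, Abcc3 and Abcg3 were. Of the 10 markers, 7 were lower and 3 higher in lineage-negative than in whole marrow (7 and 1 with TMM). Summed B cell markers also had their lowest median there (465, beside 1655 in AML and 8005 in whole marrow). So did the summed monocyte and macrophage markers (24828, beside 100875 in AML and 30702 in whole marrow). The part of these lists in these results was not tested.

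A run of 5 subfamily A genes on the minus strand of chromosome 11 (Abca8b, Abca8a, Abca9, Abca6 and Abca5, between 109932190 and 110337716) held 3 of the 7 genes higher in AML than in both groups. Abca6 (chr11:110176820-110251776), a lipid transporter described in macrophages, had 98.7, 285 and 554 in AML, 40.4, 69.7, 45.9 and 46.4 in whole marrow and 10.9, 5.29, 7.93 and 7.83 in lineage-negative marrow. All AML libraries were above all normal ones, and Abca6 rose by 2.47 ± 0.37 (adjusted p = 2.2e-05) from whole marrow (1.78 with TMM, also called) and 5.00 ± 0.37 (adjusted p = 2.0e-09) from lineage-negative marrow. Its neighbour Abca9 had 199.9, 1076 and 1979 in AML, 221, 373, 253 and 338 in whole marrow and 251, 154, 220.3 and 255 in lineage-negative marrow. Only AML replicate 6 (199.9) fell within the normal range. Abca9 rose against lineage-negative marrow (2.003 ± 0.41), and passed against whole marrow as deposited (1.58 ± 0.41) but not with TMM (0.89).

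The remaining genes of this run were named after their values were seen. Abca5 had 21, 60 and 98 in AML, 35.9, 24.1, 18.8 and 21.8 in whole marrow and 31.8, 16.7, 23.8 and 28.1 in lineage-negative marrow. It was called against lineage-negative marrow (1.13 ± 0.37). Leaving out AML replicate 4 (0.99) or lineage-negative replicate 2 (0.96) ended that call. Against whole marrow it was called as deposited (1.13 ± 0.37), but not without AML replicate 4 (0.99) nor with TMM (0.45). AML replicate 6 was the lowest AML library for all 3 of these genes, at 199.9 for Abca9, 98.7 for Abca6 and 21 for Abca5. Abca8a and Abca8b, close copies between which reads can be split, ran from 0 to 28 normalized counts over all libraries. Both were called higher in AML than in lineage-negative marrow (2.11 ± 0.75 and 1.54 ± 0.58). Abca8a lost the call without AML replicate 4 (1.82) or lineage-negative replicate 2, 3 or 4 (1.86 each). Abca8b lost it without AML replicate 1, 2, 3 or 7 or lineage-negative replicate 1, 3 or 4 (1.31 to 1.54).

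Partner genes of cholesterol handling were higher in AML in part. Of 14 tested, 10 were higher and 0 lower than in whole marrow as deposited (all genes 27.3% and 11.3%), but 1 was higher and 1 lower with TMM (4.73% and 16%). At an unadjusted limma p under 0.05 there were 11 higher and 0 lower as deposited (all genes 54.1% and 12.8%), and 11 and 2 with TMM (21.5% and 24.8%). Against lineage-negative marrow 7 were higher and 0 lower under either scaling (12 and 1 at the unadjusted p as deposited, where 26.2% and 25.1% of all genes passed), with a median difference of 0.99 beside 0.02 for all genes. They include Rxra, the partner receptor of LXR (1.83 ± 0.23), Npc2 (1.65 ± 0.24) and Npc1 (1.31 ± 0.19), which release cholesterol from lysosomes, and Soat1, which esterifies it (1.63 ± 0.22). Npc2 was also higher than whole marrow under both scalings (2.17 ± 0.24 and 1.47). Summed monocyte and macrophage markers were 65326 to 129477 in AML, 17138 to 37262 in whole marrow and 18314 to 28863 in lineage-negative marrow. They were highest in AML, as the means of Abcg1, Abca6, Abca9 and these partners were, and their part was not tested.

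**Figure D4:**
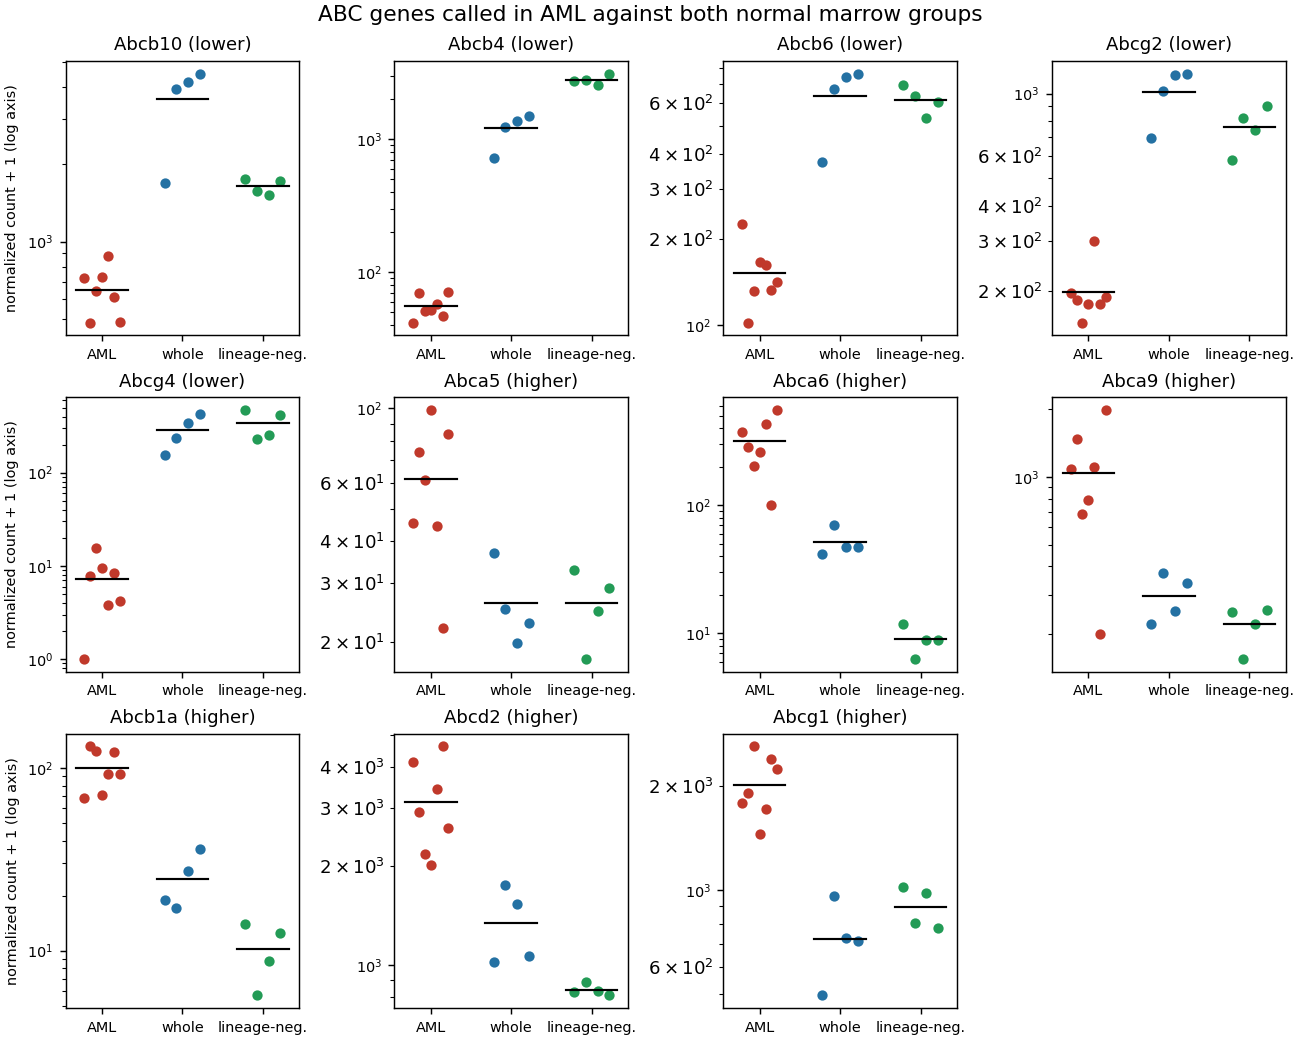
Points are single libraries on a log axis of normalized count + 1 (each panel has its own range) and lines are group means, for the 5 ABC genes lower and 6 of the 7 higher in AML than in both normal groups as deposited. Every AML point lies below every normal one for all 5 lower genes, while AML replicate 6 reaches into the normal range for Abca5 and Abca9.

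The peroxisomal transporters of subfamily D import acyl-CoA for beta-oxidation. Abcd2, which carries very long-chain and polyunsaturated fatty acids, was higher in AML than in lineage-negative marrow. It had 2010.2, 2912 and 4627 in AML, 1020.5, 1747, 1533 and 1064 in whole marrow and 831, 887, 833 and 808 in lineage-negative marrow. All 7 AML libraries were above all 8 normal ones. The difference of Abcd2 from lineage-negative marrow was 1.84 ± 0.22 (adjusted p = 1.4e-06). From whole marrow it was 1.2003 ± 0.22 as deposited, which was called, and 0.504 with TMM, which was not.

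Abcd3, the broad-range peroxisomal transporter, had 403, 489.7 and 703.6 in AML, 302, 547, 492 and 494 in whole marrow and 943, 1118, 1149 and 1041 in lineage-negative marrow. It was lower than in lineage-negative marrow (-1.01 ± 0.19, adjusted p = 2.6e-04), at the edge of the threshold: leaving out AML replicate 2, 3, 4, 6 or 7 or lineage-negative replicate 2 or 3 gave -0.997 to -0.94 and ended the call. Abcd4, which moves cobalamin out of lysosomes, had 131, 178 and 207 in AML, 59.2, 76.4, 117 and 84.6 in whole marrow and 194, 154, 141 and 145 in lineage-negative marrow. It overlapped lineage-negative marrow (0.12 ± 0.22). It passed against whole marrow as deposited (1.06), but not with TMM (0.37) or without whole-marrow replicate 1 (0.90).

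Of 14 peroxisome and cobalamin genes tested beside them, 4 were higher and 1 lower than in whole marrow as deposited (all genes 27.3% and 11.3%), and 0 and 2 with TMM (4.73% and 16%). At an unadjusted limma p under 0.05 there were 10 higher and 1 lower as deposited (all genes 54.1% and 12.8%), and 4 and 3 with TMM (21.5% and 24.8%). Against lineage-negative marrow 2 were higher and 4 lower (all genes 17.7% and 12.5%). Acaa1a, a thiolase of peroxisomal beta-oxidation, rose against lineage-negative marrow (1.03 ± 0.20). Genes that fell against it were Ehhadh, the bifunctional enzyme of the same pathway (-1.72 ± 0.34), the cobalamin receptor Cd320 (-1.77 ± 0.30), the cobalamin chaperone Mmachc (-1.65 ± 0.28) and the cobalamin-dependent methionine synthase Mtr (-1.30 ± 0.17). Beside these 3 cobalamin genes, the difference of the transporter Abcd4 was 0.12 ± 0.22. Lineage-negative marrow was itself higher than whole marrow for Cd320, Mmachc and Mtr (2.64, 2.22 and 1.98, and 1.95, 1.52 and 1.28 with TMM, all called). Means in AML and whole marrow were 81.3 and 45.8 for Cd320, 138.5 and 93.8 for Mmachc, and 1157 and 730 for Mtr. For Ehhadh they were 45.3 and 51.5.

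Of the 4 ribosome-acting members, Abce1, Abcf1 and Abcf2 were lower in every AML library than in every lineage-negative one, and Abcf3 was not. Abce1, which splits ribosomes after termination, had 1483, 2021 and 2679.6 in AML, 1036, 1651, 1944 and 1644 in whole marrow and 2855, 6886, 5603 and 5882 in lineage-negative marrow. It fell against lineage-negative marrow (-1.36 ± 0.24, adjusted p = 9.5e-05) and overlapped whole marrow (0.37 ± 0.24, and -0.33 with TMM). Abcf1, which binds initiation factor eIF2, had 1620.1, 2161 and 2297 in AML, 862, 1178, 1383 and 1217 in whole marrow and 6101, 4314, 3337 and 3566 in lineage-negative marrow. Abcf2 had 1040.5, 1321 and 1509 in AML, 442, 836, 855 and 838 in whole marrow and 3435, 2621, 2262 and 2411 in lineage-negative marrow. As deposited both lay above whole marrow and below lineage-negative marrow in every AML library. Their differences from whole marrow were 0.83 and 0.84 as deposited and 0.14 and 0.14 with TMM (adjusted p = 0.51 and 0.43, limma), none of them called.

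Against lineage-negative marrow Abcf1 (-1.05 ± 0.18, adjusted p = 1.1e-04) and Abcf2 (-1.05 ± 0.20, adjusted p = 2.1e-04) were called lower at the edge of the threshold. Abcf1 lost the call without AML replicate 3 (-0.99) or lineage-negative replicate 1 (-0.87). Abcf2 lost it without AML replicate 3 (-0.997) or 7 (-0.9997) or lineage-negative replicate 1 (-0.92). Abcf3 had 813, 929 and 965 in AML, 328, 525, 503 and 484 in whole marrow and 1156, 1066, 827 and 956 in lineage-negative marrow. It did not pass against lineage-negative marrow (-0.11 ± 0.16), and passed against whole marrow as deposited (1.02) but not with TMM (0.33) or without whole-marrow replicate 1 (0.87). Abce1, Abcf1 and Abcf2 were higher in lineage-negative than in whole marrow under both scalings, with TMM differences of 1.02, 1.18 and 1.18.

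Of 12 partner genes of ribosome recycling and initiation, 5 were lower and 0 higher in AML than in lineage-negative marrow (all genes 12.5% and 17.7%). Called against whole marrow were 1 higher and 0 lower as deposited (all genes 27.3% and 11.3%), and 0 and 0 with TMM (4.73% and 16%). At an unadjusted limma p under 0.05, 11 were lower and 0 higher than in lineage-negative marrow (all genes 25.1% and 26.2%). Against whole marrow 12 were higher and 0 lower as deposited (all genes 54.1% and 12.8%), and 2 and 0 with TMM (21.5% and 24.8%). In lineage-negative marrow 11 of the 12 were called higher than in whole marrow as deposited (all genes 33.1%) and 5 with TMM (11%). Gspt1, the release factor eRF3, had a mean of 1715 in AML and 4138 in lineage-negative marrow (-1.28 ± 0.21). Gcn1, the activator of the kinase GCN2, was at -1.06 ± 0.19, and without lineage-negative replicate 1 at -0.94, not called. Summed stem and progenitor markers were 4410.1 to 9159 in AML, 1513 to 2780.2 in whole marrow and 16409 to 20885 in lineage-negative marrow. Their order is that of Abcf1 and Abcf2 as deposited, where AML and whole marrow were not called apart, and their part in these results was not tested.

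Tap1 and Tap2, which carry peptides for antigen presentation and are ABC transporters by structure, fall outside the symbol rule. Tap1 rose against both groups, from a mean of 1482 in whole marrow and 2859.8 in lineage-negative marrow to 6946 in AML (2.25 ± 0.22, 1.55 with TMM, and 1.24 ± 0.22). Tap2 rose against whole marrow as deposited (1.42 ± 0.21; 0.73 with TMM, not called), and its difference from lineage-negative marrow was 0.16 ± 0.21. Their partner Tapbp, which is not an ABC protein, rose against lineage-negative marrow (1.32 ± 0.21). Against whole marrow Tapbp was called higher as deposited (1.63 ± 0.21) but not with TMM (0.93). The chloride channel Cftr, the fourth gene listed here, had a mean of 5.69 in AML and 12.8 in whole marrow and was at 0 in all 4 lineage-negative libraries. Its call against lineage-negative marrow ended without AML replicate 1, 5 or 7 or any 1 of the 8 normal libraries (1.70 to 1.80), and its lower call against whole marrow (-1.99 ± 0.69, and -2.57 with TMM) ended without whole-marrow replicate 2 (-1.88). Abcb9, the lysosomal peptide transporter most like them (named after its values were seen), had 38.9, 103 and 179 in AML, 94.2, 206, 168 and 247 in whole marrow and 139.7, 85.5, 121 and 124 in lineage-negative marrow. It was not called as deposited (-0.91 ± 0.37 from whole marrow), but was lower with TMM (-1.60) and without AML replicate 1 (-1.03) or 6 (-1.08) or whole-marrow replicate 1 (-1.19).

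The 7 AML libraries varied most in Abcg3, Abca9, Abcb9, Abca6 and Abca13 among the tested ABC genes with an AML mean over 100. Their coefficients of variation were 95.2% for Abcg3, 54.9% for Abca9, 50.1% for Abcb9, 48.1% for Abca6 and 46.3% for Abca13. Abca13 was highest in AML replicates 6 (8469) and 1 (7929), and the other 5 libraries lay between 2802 and 4397. Abcf3 varied least among the same genes, with 5.74%, and its values in AML ran from 813 to 965. Abcd2 was highest in AML replicates 6 (4627) and 1 (4154), as Abca13 was.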

How the data were processed

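Bulk RNA-seq of total RNA was deposited for 7 AML, 4 whole-marrow and 4 lineage-negative libraries, and samples were grouped by their titles. The values the authors deposited are normalized counts, a signal per gene that they name DESeq2 counts of the poscounts type, which divides each library by a size factor. The tools Partek, STAR and DESeq2 and the build mm10 come from the submitters' processing notes, and the counting strand, annotation and versions are not given in the sources used here. Libraries were made with a stranded total RNA kit, per the labels' protocols. Coordinates printed are those of GENCODE M21 (GRCm38), matched by gene ID: the span was equal to the table's for 50 of 50 genes and the start for 1. Exons of 12 of the 50 overlap another gene.

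From these, log2(normalized count + 1) was fitted in limma 3.58.1 (R 4.3.3) for all genes at 10 or more in at least 4 samples (18941), with 3 group means, a mean-variance trend, two-sided tests and Benjamini-Hochberg adjustment. The fit was tested on simulated data. Depth was estimated from the step between low values, and floors of 3 reads cover counting error only. Replicate correlations were 0.919 to 0.981 within groups. Alternatives covered scaling, pseudocount, filter, variance model, threshold, replicate block and each library left out. Genes given with all values were 15 fixed ABC genes and the called ones with a group mean of at least 100, and up to 3 genes with the largest differences per partner list and comparison. Results for some genes are not reported here. The ABC genes and all lists were chosen with earlier results of these data known. Promoter windows are from RefSeq (GRCm38.p6).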

Additional observations from a re-analysis of the deposited data

Results flagged for a closer look

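A library stood apart from the rest of its group in 9 of 108 gene and group combinations, by a gap to its nearest neighbour that is large for the group's range, where chance alone marks about 1 in 20. In whole marrow all 4 such cases were the low value of replicate 1, the library with the least depth: Abca2 (372), Abca7 (1807), Abcc3 (27.8) and Abcf2 (442). Its deposited values also had the lowest total, 10221001 normalized counts beside 19285222, 17995986 and 17865234 in whole-marrow replicates 2 to 4. The part of this low total in these cases, and in calls lost without replicate 1, was not tested. AML replicate 5 was high for Abcb1b (1290.2) and for Abcg2 (300.1), although its Abcg2 value was still below every normal library. AML replicate 3 was high for Abcg3 (771), and AML replicate 7 was low for Abcf3 (813). In lineage-negative marrow replicate 1 was the single library with a value for Abca8a (7.26), the other 3 being at 0.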

How the results depend on the processing

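With TMM scaling the counts of ABC genes higher in AML than in whole marrow (16) and called against both normal groups in 1 direction (12) became 4 and 7, as they did with quantile scaling (4 and 7), and the count lower in lineage-negative than in whole marrow (8) became 13. Without the filter on low values, which adds genes at low level, 12 ABC genes were lower in AML than in whole marrow in place of 6, and 16 lower in lineage-negative than in whole marrow in place of 8. The share of all genes called in that fit is not given, so these counts have no background beside them. Of the 12 ABC genes that the filter leaves out, 10 had their highest value in a whole-marrow library. Leaving out 1 library at a time gave 12 to 17 genes higher and 6 to 7 lower against whole marrow, 10 to 12 higher and 8 to 11 lower against lineage-negative marrow, 11 to 13 higher and 7 to 9 lower in lineage-negative than in whole marrow, and 11 to 13 called against both groups. The other alternatives (pseudocounts of 0.1 and 5, a mean of at least 50, each pair of groups fitted alone, a robust variance model, adjusted p alone, and both AML replicates 5 and 6 left out, the last chosen after seeing the data) kept these counts within 1.5 times. A count model on whole reads was not run, because 82.7% to 88.7% of low values were whole multiples of the step (tolerance 0.02). Same-numbered samples had correlations of -0.29 to 0.17 over 12 pairs, 2 of them over 0.1, and 3 of 12 correlated best with their own number. Pairs of AML with normal libraries come from different mice. For whole with lineage-negative marrow the correlations were 0.09, 0.17, -0.01 and -0.01. The labels do not say that the replicate number marks the mouse, so this check cannot show whether the normal groups shared mice. With the replicate number as a replicate block the counts against whole marrow were 16 and 6 and against lineage-negative marrow 11 and 10, and Abca2 (-0.99), Abca8b (1.42), Cftr (0.92) and Gcn1 (-0.995) lost their call against lineage-negative marrow. Genes whose difference changed sign were not called in the deposited values. With TMM there were 18 such differences. For AML minus whole marrow, the values were Abca13 -0.043, Abca4 -0.49, Abca8b -0.28, Abcc2 -0.46, Abcc3 -0.46, Abcc5 -0.071, Abcd3 -0.46, Abce1 -0.33, Abcg3 -0.500. For lineage-negative minus whole marrow, the values were Abca1 -0.37, Abca4 -0.060, Abca5 -0.68, Abca7 -0.48, Abcb6 -0.70, Abcc2 -0.61, Abcc5 -0.68, Abcg1 -0.36, Abcg4 -0.42. With quantile scaling there were 18. For AML minus whole marrow, the values were Abca13 -0.10, Abca8a 0.31, Abcc2 -0.27, Abcc3 -0.22, Abcc5 -0.12, Abcd3 -0.54, Abce1 -0.38, Abcg3 -0.55. For AML minus lineage-negative marrow, the values were Abcc10 -0.060, Abcc2 -0.062. For lineage-negative minus whole marrow, the values were Abca1 -0.44, Abca7 -0.36, Abca8b 0.39, Abcb6 -0.74, Abcc2 -0.20, Abcc5 -0.67, Abcg1 -0.38, Abcg4 -0.48. Leaving out 1 library turned the sign within these ranges. For AML minus whole marrow, Abca4 -0.19 to 0.42, Abca8b -0.052 to 0.78, Abcc3 -0.16 to 0.40, Abcg3 -0.14 to 0.36. For AML minus lineage-negative marrow, Abcc10 -0.11 to 0.18. For lineage-negative minus whole marrow, Abca5 -0.12 to 0.18, Abcb6 -0.24 to 0.11, Abcc2 -0.13 to 0.22, Abcc5 -0.21 to 0.13. Beyond the scaling itself, the cause was not tested.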
